A study of Mus musculus with 15 samples.

Results

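Prss28, Prss29, Prss12 and Spink1 are 3 serine protease genes and 1 trypsin inhibitor gene that were abundant in the glandular epithelium of the wild-type mouse uterus. They were picked by gene name, with their levels in these libraries already known, from the 28269 entries that the gene tables of the series list between them. The tables list different genes: all 4 stand in the wild-type tables, Prss12 and Spink1 in the E-OEX tables, and Prss29, Prss12 and Spink1 in the U-OEx tables. A gene outside a table was not analysed in that table and was never read as having no reads.

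RNA sequencing libraries were made from total RNA of uterine epithelium on day 4, with 3 libraries in each of 5 groups. The groups were luminal epithelium (LE, the lining of the uterine cavity) and glandular epithelium (GE, the glands beneath it) of wild-type (WT) mice, LE and GE of the Notch1-overexpressing mice titled E-OEX, and LE of the Notch1-overexpressing mice titled U-OEx. The agent or allele that raises Notch1, the cells in which it acts, the age of the mice, whether animals were pooled and the meaning of both abbreviations are not given in the sources used here. The series is titled as a study of overactive Notch1 signalling in this epithelium. Reads in listed genes came to between 1980800 and 4797424 per WT or E-OEX library and between 13541644 and 14981505 per U-OEx library.

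Every gene of the WT and E-OEX tables has GE and LE group means about 2-fold apart or more, so these are not full transcriptomes. In both genotypes the GE libraries also held transcripts of neighbouring cell types. The summed scaled count of 7 listed stromal markers was 33937 to 99770 in WT GE and 369 to 7720 in WT LE. The 9 gland markers summed to 29869 to 34838 in WT GE and 4540 to 6833 in WT LE, and the 7 luminal markers to 1626 to 2307 in WT GE and 34457 to 63477 in WT LE, so both compartments carried the markers of their labels. Most of the LE sum of gland markers came from Sult1d1, Lgr5 and Aldh1a1, which are not restricted to glands here. Lgr5 went against its label, with 110, 1673 and 438 in WT LE replicates 1, 2 and 3 and a WT GE mean of 140. In bulk libraries such as these, fewer gland cells and less RNA per gland cell cannot be told apart.

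Serine proteases of the trypsin family are made as inactive precursors and cut proteins after basic residues, and secreted inhibitors hold them in check. Uterine glands release such enzymes and inhibitors into the lumen around the time the embryo attaches. Prss28 and Prss29 encode the implantation serine proteinases ISP1 and ISP2, tryptase-like enzymes known from mouse uterine glands. Prss12 encodes neurotrypsin, a mosaic protease best known for cutting the matrix protein agrin at nerve endings. Spink1, long called Spink3 in the mouse, encodes a small Kazal-type inhibitor that binds trypsin and is known from the pancreas and the male reproductive tract.

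Prss28 (ENSMUSG00000024171) lies at chr17:25308646-25311876 and Prss29 (ENSMUSG00000034039) at chr17:25318654-25322684, both on the plus strand of GRCm38 and 6778 bases apart, within the tryptase gene cluster. Prss34 lies 8481 bases to the left of Prss28, and Tpsab1 lies 20561 bases to the right of Prss29. Neither of these neighbours is in any table, and the mast cell tryptase gene Tpsb2 further right had a scaled count of 15.3 ± 9.90 (SD, n = 3) in WT GE and 0 in WT LE. Prss12 (ENSMUSG00000027978) lies at chr3:123446913-123506597 on the plus strand. Prss28, Prss29 and Spink1 overlap no other annotated gene. Prss12 overlaps the antisense gene Gm35065 and the plus-strand entry Gm43590. The longest stretch that an exon of Prss12 shares with an exon of either has 157 bases. The library kit does not mark strand, so reads from that stretch cannot be assigned to either gene.

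The 250 bases in front of Prss28 and Prss29 are shown because these neighbouring genes kept a nearly fixed proportion across the WT gland libraries. The sequences are from RefSeq on GRCm38.p6, read 5′ to 3′ along the plus strand up to the base before the annotated start (chr17:25308396-25308645 and chr17:25318404-25318653). Capitals mark the 2 longest runs that both share.
Prss28: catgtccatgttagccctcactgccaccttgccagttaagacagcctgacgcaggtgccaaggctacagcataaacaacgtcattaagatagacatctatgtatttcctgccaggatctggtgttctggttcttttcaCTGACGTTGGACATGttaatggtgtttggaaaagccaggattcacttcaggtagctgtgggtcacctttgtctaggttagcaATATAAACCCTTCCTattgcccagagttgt
Prss29: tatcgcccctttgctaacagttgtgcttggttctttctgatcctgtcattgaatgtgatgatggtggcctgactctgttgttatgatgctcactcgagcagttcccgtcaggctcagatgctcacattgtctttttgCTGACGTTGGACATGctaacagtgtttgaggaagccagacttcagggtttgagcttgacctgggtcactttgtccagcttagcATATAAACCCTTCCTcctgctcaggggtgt

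In a global alignment, 159 of the 250 bases were identical (63.6%). The same alignment of Prss28 or Prss29 with 8 other genes of the tryptase cluster gave 44.8% to 52.4% over 16 pairs. The run CTGACGTTGGACATG begins 112 bases before the start in Prss28 and 113 in Prss29. The run ATATAAACCCTTCCT begins 30 bases before the start in both. Of 32851 mouse promoters in the table, 2 hold each run. A promoter was matched for 3 of the 4 genes, Spink1 being the one without an entry.

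Short motifs were searched on both strands of the same window and of all 32851 promoters. The core promoter motif TATAAA stands 29 bases before the start in Prss28 and in Prss29, inside the second shared run, is absent from the Prss12 window and occurs in 12.4% of all promoters. TGACGT, a cyclic AMP response element half-site, occurs in the first shared run of both genes and once more in Prss28, 173 bases before the start, against 6.47% of all promoters. The steroid receptor half-site AGAACA occurs in Prss28 alone, on the minus strand 129 bases before the start, against 16.1%. TGGGAA, a core of the motif of the Notch effector RBPJ, is in none of the 3 windows and in 21.6% of all promoters. The forkhead motifs TGTTTAC (3.17% of all promoters) and TGTTTGC (4.30%), the E-box CACGTG (6.02%) and the form CACGCG (7.62%) are in none of the 3 windows either. A match or its lack describes these letters in this window only.

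The coding sequences of Prss28 and Prss29 are 825 and 840 bases long, and 520 of 812 aligned bases were identical (64.0%). Their longest shared coding run has 26 bases and stands at coding positions 118 to 143 in both. It is printed to show how short the longest identical stretch is, which over whole transcripts has 27 bases.
Prss28 and Prss29, shared coding run: GGGAAGTGGCCATGGCAGGTCAGCCT
None of the 1141 windows of 50 bases in the Prss28 transcript occurs in the Prss29 transcript. The read length and the handling of reads with several matches are not given in the sources used here, so whether any reads were divided between both genes was not tested.

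In wild-type uterus all 4 genes were high in glands and low or barely detected in the lining. This is a description, since the genes were chosen on this contrast. In WT GE, Prss29 had the highest mean of the 4, with scaled counts of 13840.1, 6029 and 16582 in replicates 1, 2 and 3 (12151 ± 5475, SD, n = 3). In WT LE the same gene had 0, 9.22 and 0. All of its luminal reads, 9 in number, came from replicate 2. Since the other 2 LE libraries were at 0, no ratio of the means is given.

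Prss28 showed the same picture at a lower level. Its scaled counts were 5760.5, 2958 and 7774 in WT GE (5497 ± 2418, SD, n = 3) and 0, 1.02 and 0 in WT LE, a single luminal read. With LE at the detection floor of 3 reads per library, GE was at least 1730-fold higher. On the log2(value + 1) scale, which understates folds against such low values, the GE excess was 12.33 for Prss29 and 11.98 for Prss28. These rank 1 and 2 among the 6096 annotated genes of the WT tables.

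Spink1 (ENSMUSG00000024503, chr18:43728082-43737557, minus strand of GRCm38), the inhibitor, had 10612, 8261 and 12770.1 in WT GE (10548 ± 2255, SD, n = 3) and 1.04, 17.4 and 6.71 in WT LE (8.38 ± 8.32, SD, n = 3; 24 reads in all). The ratio of the means was 1258 (2725 without WT LE replicate 2) and the log2 difference 10.62, rank 4. Unlike the ISP genes, Spink1 had reads in every WT LE library.

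Prss12 was the least restricted. It had 1590.2, 1828 and 2132 in WT GE (1850 ± 271, SD, n = 3) and 7.25, 159 and 50.3 in WT LE (72.1 ± 78.1, SD, n = 3). The ratio of the means was 25.7 (64.3 without WT LE replicate 2), with a log2 difference of 5.50 and rank 165. GE and LE libraries did not overlap for any of the 4 genes, which also held, GE being higher, for 57.4% of the genes in these tables.

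**Figure D1:**
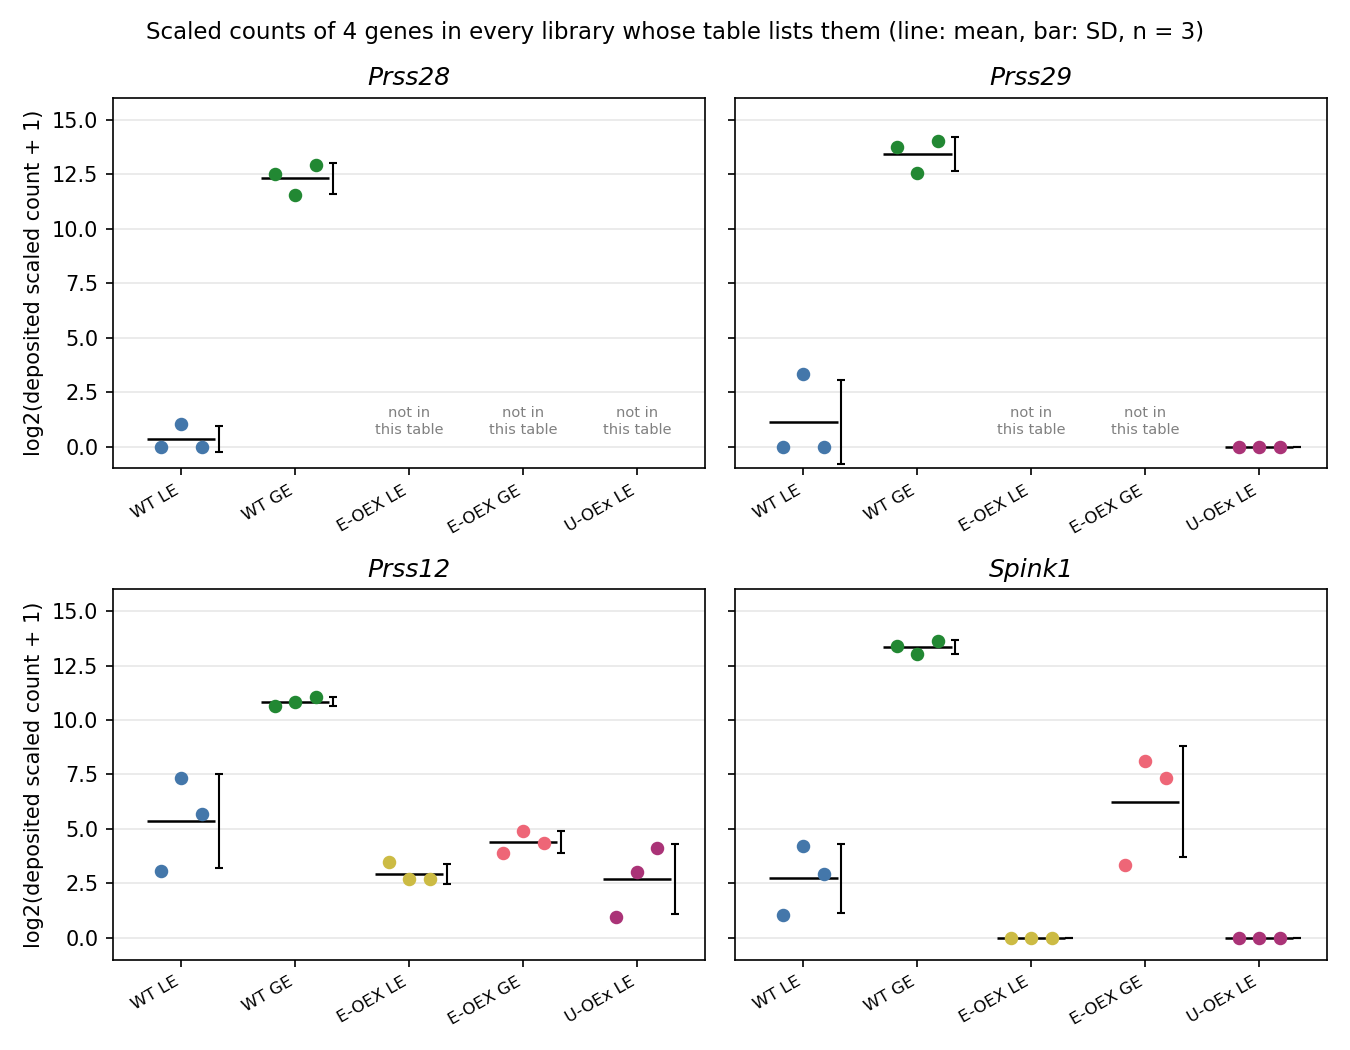
Scaled counts of Prss28, Prss29, Prss12 and Spink1 in each library, as log2(value + 1), by group; points are libraries in replicate order, lines are means and bars are the SD (n = 3). WT GE stands above every other group for each gene, and Spink1 is at 0 in all 6 mutant LE libraries; groups of different genotype come from tables that may not share a scale.

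Read per kilobase of exon, so that genes of different length can be compared, the inhibitor was the most abundant of the 4. In WT GE its level was 14469 ± 3094 scaled counts per kb (SD, n = 3; 729 exonic bases), rank 6 of 6086 genes with a length. Prss29 followed at 10288 ± 4636 per kb (1181 bases, rank 9) and Prss28 at 4514 ± 1986 per kb (1218 bases, rank 28). Spink1 and Prss29 overlapped in range on this scale, and so did Prss29 and Prss28. Prss12, at 711 ± 104 per kb (2602 bases, rank 237), lay below all libraries of the other 3 genes. These ranks refer to genes selected for a compartment difference, not to the whole transcriptome.

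The ISP genes kept a nearly fixed proportion across the 3 WT gland libraries. The ratio of Prss29 to Prss28 scaled counts was 2.40, 2.04 and 2.13 in replicates 1, 2 and 3, a 1.18-fold range, although each gene alone spanned 2.75-fold or 2.63-fold. Replicate 2 was the lowest for Prss28, Prss29 and Spink1, but not for Prss12. It was the library with the highest sum of stromal markers (50226, 99770 and 33937 in replicates 1, 2 and 3). The gland marker sum varied less, at 34186, 29869 and 34838 in the same libraries. The part of stromal RNA in the low values of replicate 2 was not tested. The ratio of Spink1 to Prss28 was 1.84, 2.79 and 1.64, and that of Prss12 to Prss28 was 0.276, 0.618 and 0.274. The spread between libraries was largest for Prss29 and Prss28, with coefficients of variation of 45.1% and 44.0%, against 21.4% for Spink1 and 14.7% for Prss12. A ratio between 2 genes of a library is free of its scaling factor, and 3 libraries give no test of these spreads.

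In the wild-type lining, replicate 2 was the highest library for all 4 genes. There Prss28 reached 0.0186% of its WT GE mean, Prss29 0.0759%, Spink1 0.165% and Prss12 8.58%. The gland markers did not share 1 order: replicate 2 was the highest LE library for Lif, Ttr, Calca, Wfdc3 and Lgr5, and replicate 1 for Foxa2, Cxcl15, Sult1d1 and Aldh1a1. For Lif, Ttr, Calca and Wfdc3 the level in replicate 2 was 0.832%, 0.152%, 0.734% and 0.438% of the WT GE mean. The luminal share of Prss12 in that library was larger than each of these 4, and the shares of Prss28, Prss29 and Spink1 were not larger than the highest of them. The share of Prss12 was smaller than those of Sult1d1 (18.2%), Aldh1a1 (29.9%) and Lgr5 (1192%), which are not restricted to glands here.

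Stromal markers in WT LE had the same order of libraries as Prss12 and Spink1, which Lif, Calca, Wfdc3 and Lgr5 had as well. Their sum was 369, 7720 and 2461 in replicates 1, 2 and 3, or 0.601%, 12.6% and 4.01% of the WT GE mean sum. Prss12 stood at 0.392%, 8.58% and 2.72% of its own WT GE mean in the same libraries, and Spink1 at 0.00982%, 0.165% and 0.0636%. The luminal marker sum ran the other way, with replicate 2 the lowest (63477, 34457 and 53237). Much of that sum was Calb1, at 44990, 17811 and 35781. The sum of 5 listed epithelial markers varied little, at 97803, 90741 and 91008. The part of RNA from beneath the lining in the luminal values of the 4 genes was not tested.

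Mast cells, for tryptases, and pancreatic acinar cells, for Spink1, are other known sources of such transcripts. Of 8 mast cell markers 5 are in the WT tables, and Cma1, Mcpt4 and Tpsb2 were at 0 in all WT LE libraries. In WT GE these 3 averaged 18.7, 13.5 and 15.3, and Cpa3 averaged 9.39. The sum over the 5 markers, 7230.0 to 9049, was almost all Kit (7928 ± 973, SD, n = 3), which was read in all 5 groups. Of 11 acinar markers only Cela2a is in the WT tables, with 8.53 to 19.0 in WT GE and 0 in WT LE. The part of either cell type in the levels of the 4 genes was not tested.

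The genes with the most similar profile were found by Pearson correlation of log2(value + 1) over the libraries whose tables list both genes. They are given as a description, since the libraries share their groups and any gland-enriched gene scores high. Over 6 libraries and 4968 genes, Galntl6 (r = 0.999), Pip5k1b, Rbfa and Krt83 were among the nearest to Prss28, and Prss29 ranked 173 (r = 0.992). Over 9 libraries and 4982 genes, Kank1 (r = 0.998), Ackr2, Cyp3a59, Tns4 and Gm32592 were nearest to Prss29, and Spink1 ranked 23 (r = 0.988). By this measure Prss28 was thus no closer to its neighbour Prss29 than to many other gland genes. The LE part of that r rests on 1 read of Prss28 and 9 of Prss29, all in WT LE replicate 2. The ranking for Prss29 did not include Prss28.

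Over all 15 libraries, Spink1 was most like Cyp3a59 (r = 0.988), Btg3, Calca (r = 0.963), Chrd (r = 0.951) and Gm765 among 2350 genes. Prss12 was most like Chrd (r = 0.893), C630043F03Rik, Akr1d1, Spink1 (r = 0.872) and Zfp703. Chrd, which encodes the bone morphogenetic protein antagonist chordin, was on both lists. From the side of Spink1, Prss12 ranked only 63.

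In glands of E-OEX mice Spink1 and Prss12 were both about 100-fold lower than in wild-type glands. The genes were chosen with this contrast known, so no test is given. The scaled counts of Spink1 in E-OEX GE were 9.01, 275 and 161 (148 ± 133, SD, n = 3; 420 reads), against 8261 to 12770.1 in WT GE. Those of Prss12 were 14.0, 28.7 and 19.7 (20.8 ± 7.43, SD, n = 3; 60 reads), against 1590.2 to 2132. No library of either group reached the range of the other.

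No source states that the WT and E-OEX tables share a scale, so reads of the shared genes were rescaled together before folds between genotypes were taken. On that common scale the mean of Spink1 was 102-fold lower in E-OEX GE and that of Prss12 124-fold lower. On the deposited scale the folds were 71.1 and 88.9. The lowest WT GE library still exceeded the highest E-OEX GE library 39.0-fold for Spink1 and 77.9-fold for Prss12. The log2 differences were -7.56 and -6.92. Without E-OEX GE replicate 1 the difference of Spink1 was -6.16, and without replicate 2 it was -8.50 (191-fold lower by the means). The E-OEX GE libraries of this gene spanned 30.5-fold. In this comparison E-OEX GE lay below WT GE without overlap for 21.8% of the 2708 genes tested.

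Both genes stood at the low end of the range that gland markers covered. As a percentage of the WT GE mean, Spink1 stood at 0.0669, 1.91 and 0.978 in E-OEX GE replicates 1, 2 and 3, and Prss12 at 0.596, 1.14 and 0.684. Foxa2, the transcription factor that marks gland cells, kept 75.3, 60.5 and 70.6, and the chemokine gene Cxcl15 kept 28.3, 31.9 and 21.3. Ttr, which encodes the carrier of thyroid hormone and retinol-binding protein, was about as low, at 1.22, 2.32 and 0.535. Between these extremes lay Lif, the cytokine needed for implantation, at 6.34, 14.3 and 7.44.

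Calca, the calcitonin gene, was the marker with a spread like that of Spink1, at 0.727, 29.1 and 10.4. E-OEX GE replicate 1 was the lowest library for Spink1, Prss12, Lif, Calca, Wfdc3 and Sult1d1, but not for Foxa2, Cxcl15 or Ttr. It was also the E-OEX GE library with the highest luminal marker sum (8781, 2386 and 2072 on the deposited scale). Ltf alone made up 6814, 1094 and 1045 of that sum. The part of luminal RNA in the low values of replicate 1 was not tested. Of the 7 gland markers listed in both genotypes, 5 were lower in E-OEX GE by limma (Ttr, Calca, Lif, Cxcl15 and Sult1d1) and none was higher, where 24.1% of all genes passed in either direction. Foxa2 differed by -0.54 on the log2 scale (SE 0.21, limma adjusted p = 0.0897) and Wfdc3 by -0.31 (SE 0.29, adjusted p = 0.510).

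**Figure D2:**
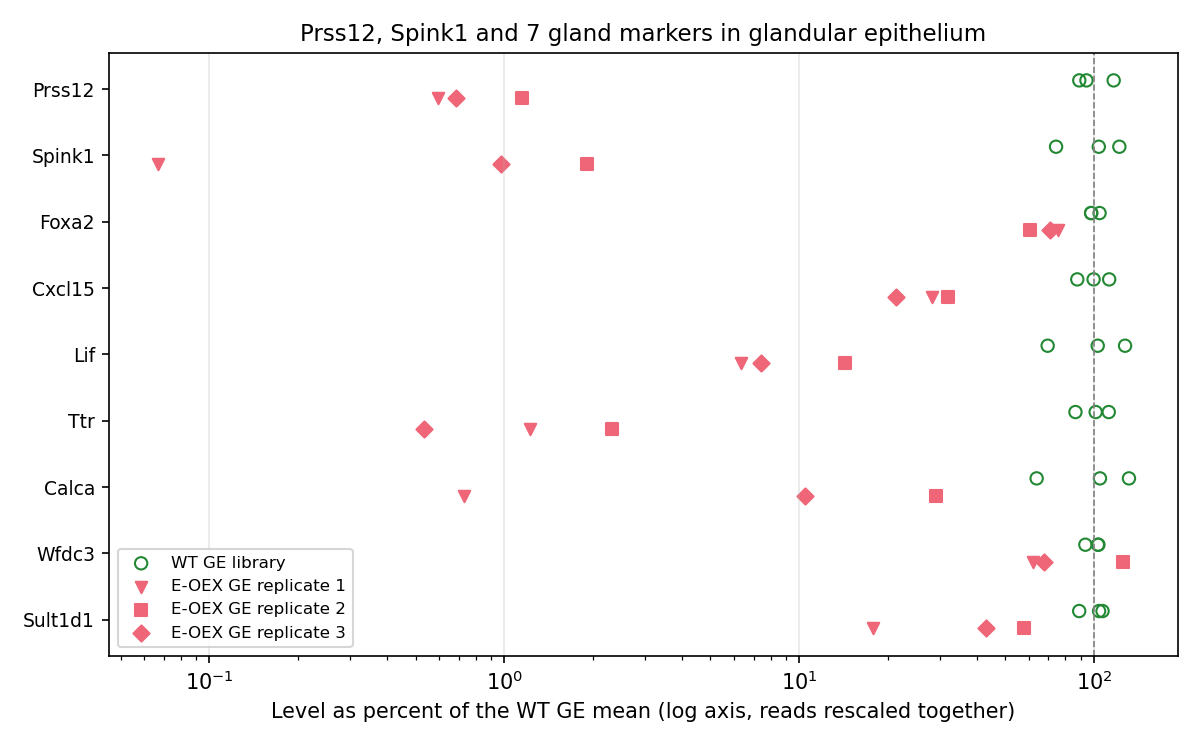
Level of Prss12, Spink1 and 7 gland markers in each GE library as a percentage of the WT GE mean, on a log axis, after reads of both genotypes were rescaled together. The E-OEX GE libraries of Prss12 and Spink1 lie between 0.0669% and 1.91%, near those of Ttr and far below those of Foxa2, at 60.5% to 75.3%.

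Markers of other cells also differed between the gland libraries of both genotypes. On the common scale the 7 gland markers summed to 8755 to 18165 in E-OEX GE and 33727 to 42153 in WT GE. The 7 listed smooth muscle and pericyte markers summed to 15846 to 17956 in E-OEX GE and 6336 to 10175 in WT GE, and 3 of them rose by limma. The 6 listed luminal markers summed to 1611 to 8350 against 948 to 1687, and 2 rose. In E-OEX GE replicate 1 most of that sum was Ltf. The mean of Ltf also differed between the linings, at 24428 in E-OEX LE and 1136 in WT LE on the deposited scale. The sum therefore does not stand for luminal cells alone. Of the mast cell list, 2 markers (Cma1 and Kit) are in both genotypes' tables and summed to 1321 to 1814 in E-OEX GE and 8773 to 11042 in WT GE, with 1 lower by limma. That sum was almost all Kit, which was read in all 5 groups and so does not stand for mast cells alone. On the deposited scale Kit averaged 1801 in E-OEX GE and 7928 in WT GE, and Cma1 5.17 and 18.7. The stromal sums overlapped, at 65101 to 80337 against 41491 to 115050. No marker of these lists in both genotypes' tables was at 0 in all libraries of either GE group, and the part of these differences in the lower Spink1 and Prss12 was not tested.

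Within the E-OEX mice both genes remained higher in glands than in the lining, again as a description. Spink1 was at 0 in all 3 E-OEX LE libraries, so GE was at least 51.1-fold higher (log2 difference 6.26, rank 158 of 4681). Without E-OEX GE replicate 2 this bound was 29.3, and the log2 difference ranged from 5.33 to 7.72 over left-out libraries. Prss12 had 10.04, 5.45 and 5.40 in E-OEX LE (6.96 ± 2.67, SD, n = 3), which left GE 2.99-fold higher (log2 difference 1.45, rank 2699). The GE libraries lay above the LE libraries for both, as they did for 62.2% of the genes of these tables. The gland-to-lumen ratio of Prss12 was thus 25.7 in wild type (64.3 without WT LE replicate 2) and 2.99 in E-OEX, each within its own tables. The difference between these ratios was not tested.

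In the luminal epithelium, Spink1 was not detected in any of the 6 Notch1-overexpressing libraries, while each WT LE library held at least 1 read. In U-OEx LE, whose tables have 27946 entries, 0 reads of 13541644 to 14981505 allow an RPM of at most 0.200 to 0.222. RPM here is reads scaled to the sum of reads in listed genes. Levels in LE were known when the genes were chosen, so the adjusted p values of Spink1, Prss12 and Prss29 between LE groups are descriptive only. By limma Spink1 was lower in U-OEx LE than in WT LE, by 2.74 on the log2 scale (SE 0.78, adjusted p = 0.0172). It was at least 3.01-fold lower against a floor of 3 reads per library (1.44-fold without WT LE replicate 2). The groups did not overlap, U-OEx LE being lower, as for 30.6% of the genes tested. In the same comparison 56.4% of 5651 genes passed, so a pass was common. The call rests on 24 WT LE reads: without WT LE replicate 3 the adjusted p was 0.0628, and without U-OEx LE replicate 1, 2 or 3 it was 0.0581, 0.0543 or 0.0570.

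In E-OEX LE the difference of Spink1 missed the threshold, at -2.77 on the log2 scale (SE 0.85, limma adjusted p = 0.0650), where 11.1% of 2451 genes passed. The groups did not overlap, E-OEX LE being lower, which held for 14.8% of the genes tested. The call turned with the setting: it passed without WT LE replicate 1, which held a single read (-3.64, limma adjusted p = 0.0136), with a pseudocount of 0.1 (-5.76, limma adjusted p = 0.0447) and with DESeq2 (-5.65, adjusted p = 0.0233). Both comparisons share the WT LE libraries, so their like values are not 2 independent findings. With both mutant groups at 0, no difference between E-OEX LE and U-OEx LE could be measured for Spink1.

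Prss12 was low in the lining of both mutants, but the spread in WT LE was wide. Its scaled counts were 10.04, 5.45 and 5.40 in E-OEX LE and 0.919, 7.11 and 16.3 in U-OEx LE (8.12 ± 7.75, SD, n = 3; 26 reads), against 7.25, 159 and 50.3 in WT LE. The WT LE replicate 1 lay within the range of both mutant groups, and the other 2 WT LE libraries lay above every mutant library. The limma estimate was -2.58 on the log2 scale in E-OEX LE (SE 0.97, limma adjusted p = 0.122) and -2.71 in U-OEx LE (SE 1.14, limma adjusted p = 0.0724), neither past the threshold. The low WT LE replicate 1 is also the library with the lowest stromal marker sum. In E-OEX LE the stromal sums were 2730.3, 1214 and 505, and in U-OEx LE 1014, 682 and 2675. These cover 9 listed markers against 7 in WT LE, so their size is not compared between genotypes. The library with the most Prss12 was also that with the highest stromal marker sum within each of the 3 LE groups. Without WT LE replicate 1 both comparisons passed, at -3.69 (limma adjusted p = 0.0144) and -3.81 (limma adjusted p = 0.0131). Both also passed on the recovered reads, with edgeR's quasi-likelihood test (adjusted p = 0.0495 and 0.0418) and with DESeq2 (adjusted p = 0.00302 and 0.00728).

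The count models gave another call for Prss12. On recovered reads, edgeR put the log2 difference at -3.46 in E-OEX LE (adjusted p = 0.0495) and -3.13 in U-OEx LE (adjusted p = 0.0418). Between the mutants, U-OEx LE minus E-OEX LE was -0.38 (SE 0.81, 95% interval -2.22 to 1.45, limma adjusted p = 0.778), where 14.6% of 4071 genes passed. The sign of this difference turned with edgeR and without U-OEx LE replicate 1, so no order of the 2 mutants can be read from it.

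Prss29 was at 0 in all 3 U-OEx LE libraries, with the same limit of 0.200 to 0.222 RPM. Since 2 of the 3 WT LE libraries were at 0 as well, the limma log2 fold change of -1.10 (SE 0.91, adjusted p = 0.328) rests on 9 reads of 1 library, and no fold is given. Prss28 was not analysed in either mutant, nor Prss29 in E-OEX.

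The absence of Prss29 and Spink1 in U-OEx LE stood beside higher levels of some gland markers in the same libraries. Foxa2 rose there by 5.62 on the log2 scale relative to WT LE (SE 0.52, limma adjusted p = 6.77e-05), Lif by 3.87, Cxcl15 by 3.77 and Wfdc3 by 2.77. Foxa2 reached a mean of 526 against 10.9 on the common scale. Ttr was at 0 in all U-OEx LE libraries, and Sult1d1 fell by 8.53. Of 8 gland markers tested there, 4 rose, 1 fell and 3 (Lgr5, Calca and Aldh1a1) did not pass, near the 56.4% of all genes that passed in this comparison. The sum over all 9 gland markers was 1546 to 2102 in U-OEx LE and 4403 to 7626 in WT LE on the common scale, Sult1d1 making up most of the latter.

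The order of levels over all 5 groups can be given for Spink1 and Prss12, on the deposited scale and across tables that may not share it. Prss12 was highest in WT GE, then WT LE, E-OEX GE, U-OEx LE and E-OEX LE. Only the step from WT GE to WT LE exceeded the spread, since each later neighbour overlapped the next in range. Spink1 was highest in WT GE, then E-OEX GE, then WT LE, then both mutant LE groups at 0. E-OEX GE replicate 1, at 9.01, lay within the WT LE range of 1.04 to 17.4.

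Other proteases, inhibitors and substrates of the trypsin family were read from 6 lists with 153 genes, the 4 genes above left out of each count. In E-OEX GE against WT GE, 23 of them were tested and 6 passed by limma, 3 higher and 3 lower, near the 24.1% of all genes. Tissue kallikrein Klk1 in E-OEX GE exceeded WT GE at least 16.5-fold (7.38-fold without E-OEX GE replicate 1), with a fitted log2 value of 4.47 (SE 0.73, adjusted p = 0.00215). The Kunitz inhibitor gene Tfpi2 fell by 2.14 (SE 0.36, adjusted p = 0.00255), from a rescaled mean of 116 to 25.5, and the serpin gene Serpina3n fell by 2.85. Wfdc2, of the whey acidic protein family, rose by 1.82. Agrn, which encodes the neurotrypsin substrate agrin, rose by 0.76 (SE 0.24, adjusted p = 0.0443), a call lost without WT GE replicate 1, 2 or 3 or E-OEX GE replicate 1 or 3 (adjusted p = 0.102, 0.123, 0.0841, 0.0752 and 0.0834). The 3 risen genes all had higher means in WT LE than in WT GE on the deposited scale. These were 9.01 against 0.965 for Klk1, 22833 against 1135 for Wfdc2 and 7731 against 1776 for Agrn. The part of luminal RNA in their rise was not tested. Hgfac (-0.78) was the remaining one of the 6. Spink1 and Prss12 were chosen with this contrast known, so their differences are not ranked against these. The median over all genes of this comparison was 0.05 on the common scale and 0.51 on the deposited scale, where Hgfac no longer passed (-0.31, adjusted p = 0.315).

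In E-OEX LE against WT LE, 5 of 23 tested list genes passed, 4 higher and 1 lower, with 11.1% of all genes as background. Wfdc15b, of the whey acidic protein family, rose by 4.39 (SE 0.58, adjusted p = 0.00262). Klk10 (3.997), Hgfac (3.06) and Wfdc3 (3.76) were higher and Serpina1e (-3.96), one of several near-identical genes whose reads are uncertain, was lower. Without E-OEX LE replicate 1 the adjusted p of Klk10, Hgfac, Wfdc3 and Serpina1e was 0.0564, 0.0728, 0.150 and 0.0565. Without E-OEX LE replicate 2 that of Hgfac was 0.0558 and that of Serpina1e 0.0519, and without WT LE replicate 3 that of Hgfac and Wfdc3 was 0.0815 and 0.131. Wfdc3 was also lost without WT LE replicate 1 or 2 or E-OEX LE replicate 3 (adjusted p = 0.0557, 0.0738 and 0.0828), and Hgfac without WT LE replicate 2 (adjusted p = 0.0501). Of the Kazal and Kunitz inhibitors, 0 of 2 tested passed, and of the tryptase cluster 0 of 1. In U-OEx LE, 34 of 49 passed (69.4%), 23 higher and 11 lower, against 56.4% of all genes. All 3 tested genes of the tryptase cluster passed there. Prss22, the epithelial tryptase epsilon, rose by 2.89 (SE 0.69, adjusted p = 0.00760), and Prss27 by 2.05 (adjusted p = 0.0224), with adjusted p of 0.0731, 0.0892 and 0.0661 without WT LE replicate 3, U-OEx LE replicate 1 or U-OEx LE replicate 3. Prss33 was at 0 in all U-OEx LE libraries and at least 78.0-fold lower than in WT LE.

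Among 6 Kazal and Kunitz inhibitors tested in U-OEx LE against WT LE, 2 rose. Ambp, which encodes the inhibitor bikunin, was at least 7.66-fold higher (4.98-fold without U-OEx LE replicate 3) and Spink4 at least 4.27-fold higher, both from 2 reads in WT LE. The other 4 did not pass. The protease-activated receptor gene F2rl1, which encodes the receptor that trypsin cuts, fell by 1.80 (SE 0.31, adjusted p = 0.00157). Agrn rose by 0.98 (SE 0.29, adjusted p = 0.0190), a call lost without WT LE replicate 3 (adjusted p = 0.0855). Between the mutants, U-OEx LE against E-OEX LE, 9 of 41 tested list genes passed, 6 higher and 3 lower, with 14.6% as background. Among them Spink12 was higher by 4.93 in U-OEx LE (SE 1.03, adjusted p = 0.0186), which was lost without U-OEx LE replicate 1 or 3 (adjusted p = 0.0999 and 0.0880).

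**Figure D3:**
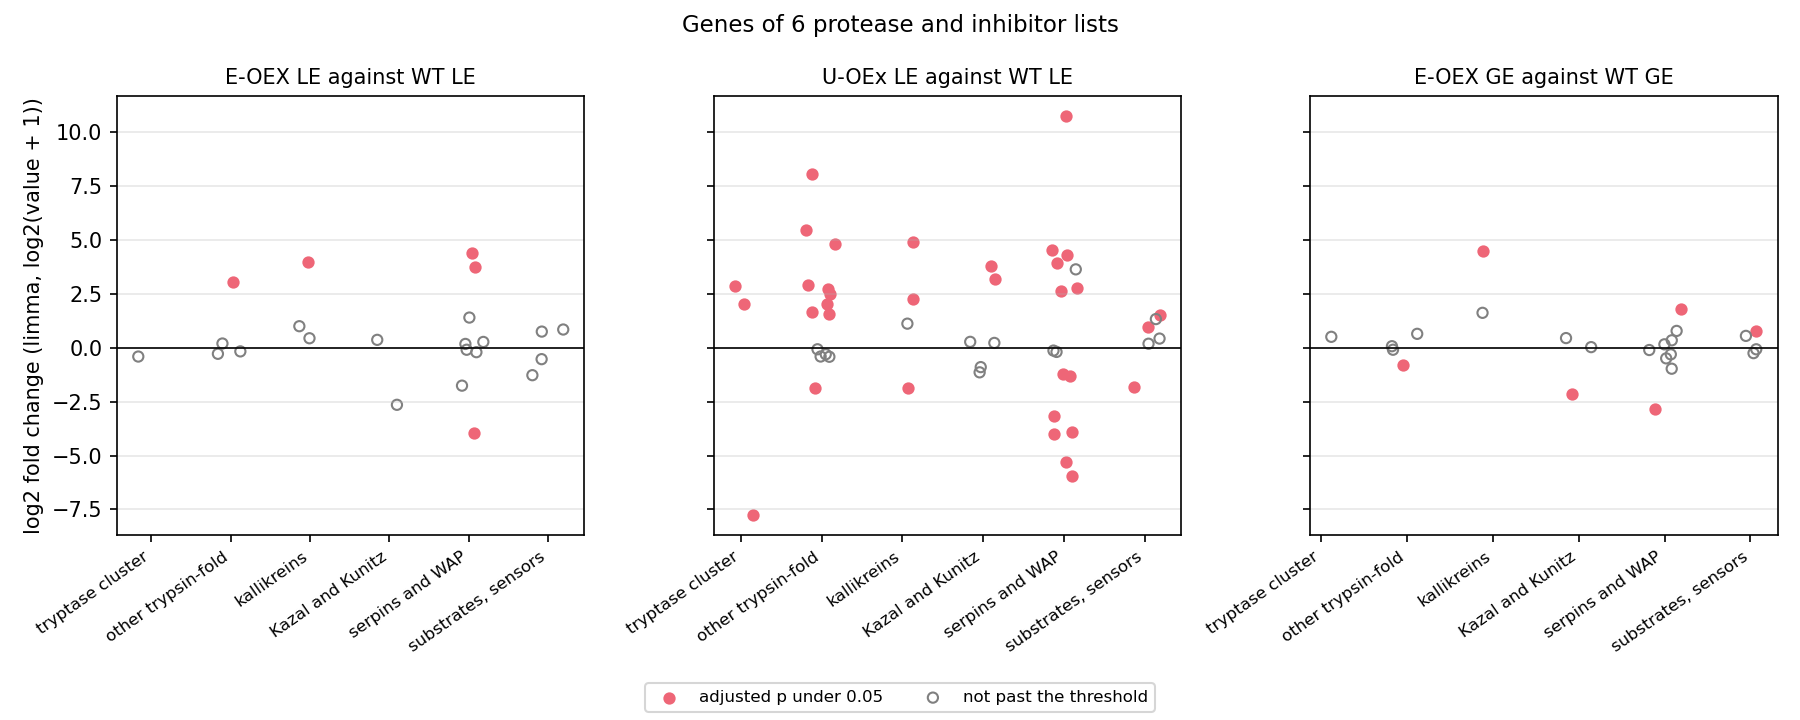
Log2 fold changes from limma on log2(value + 1) for genes of 6 protease and inhibitor lists in 3 comparisons; each point is 1 gene, filled where the adjusted p was under 0.05, and points are spread sideways within a list. The filled points number 5 in E-OEX LE, 34 in U-OEx LE and 6 in E-OEX GE, and lists hold both risen and fallen genes.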

How the data were processed

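The authors deposited 1 scaled value per gene and library, handled here as a signal; per the file headers no unit, aligner or counting tool is named, and these are not given in the sources used here. The submitters' processing notes name GRCm38 and mm10. Each library's values were whole multiples of 1 step (within 0.01 of a whole read), so reads were recovered. Entries without an Ensembl identifier were not matched between tables.

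Comparisons between genotypes used recovered reads of shared genes, rescaled with TMM (edgeR 4.0.16), and limma 3.58.1 (R 4.3.3, lmFit and eBayes with trend) on log2(value + 1), leaving out genes whose mean was under 1, Benjamini-Hochberg adjusted over all genes tested (threshold 0.05). TMM presumes that most shared genes do not change. In U-OEx LE against WT LE 56.4% of 5651 genes passed, 1652 higher and 1535 lower, so by that count this did not hold there. The median log2 fold change of that comparison was 0.11 on the common scale and 0.16 on the deposited scale. DESeq2 1.42.0 and edgeR served as alternatives. Replicates differed by a chi-square of 16.6 to 182 per degree of freedom, so none was a repeated library; whether they come from separate animals is not stated, and p-values measure only the spread between these samples. Floors and limits at 0 (3 reads) cover counting error only. Gene positions are from GENCODE M21, alignments from Biopython 1.88.

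The 4 genes and the lists were chosen with earlier results of these data known. Members are not tested in the contrasts that include GE. Their levels in LE were known as well, so their adjusted p values between genotypes in LE are descriptive only. Up to 3 genes per list and direction with the largest change could be named from the protease and inhibitor lists, and cell type markers were named beside the results they touch.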

Additional observations from a re-analysis of the deposited data

Results flagged for a closer look

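Hgfac, which encodes a serine protease that activates hepatocyte growth factor, moved in opposite directions in the 2 compartments of E-OEX mice. It was higher in E-OEX LE than in WT LE by 3.06 on the log2 scale (SE 0.63, limma adjusted p = 0.0161) and lower in E-OEX GE than in WT GE by 0.78 (log2 fold change -0.78, SE 0.23, limma adjusted p = 0.0353). Every E-OEX LE library lay above every WT LE library and every E-OEX GE library below every WT GE library. The difference was not tested. Both calls were lost in some fits that left out 1 library: adjusted p was 0.0501 and 0.0815 without WT LE replicates 2 and 3, and 0.0728 and 0.0558 without E-OEX LE replicates 1 and 2. In GE it was 0.167 and 0.148 without WT GE replicates 1 and 3, and 0.0644 and 0.0917 without E-OEX GE replicates 2 and 3. On the deposited scale the GE value was -0.31 (adjusted p = 0.315).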

How the results depend on the processing

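Counts of genes past the threshold ranged, leaving out 1 library, from 58 to 335 in E-OEX LE against WT LE (272 with all), 2584 to 3257 in U-OEx LE against WT LE (3187), 51 to 880 in U-OEx LE against E-OEX LE (594) and 353 to 706 in E-OEX GE against WT GE (653). DESeq2 called 436 in the first. The share of calls that were higher was 48.5% there and 59.6% on the deposited scale, and 42.1% and 72.9% in E-OEX GE.

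In E-OEX LE, Spink1 passed with a pseudocount of 0.1 (-5.76, adjusted p = 0.0447) and with DESeq2 (-5.65, adjusted p = 0.0233), and ranged from -3.64 to -2.09 over left-out libraries. Prss12 there was -3.46 with edgeR and -3.47 with DESeq2, and -3.69 to -1.67 over left-out libraries. In U-OEx LE, Prss12 was -3.13 with edgeR and -3.26 with DESeq2, and -3.81 to -1.76 over left-out libraries, and Spink1 -3.60 to -2.03. U-OEx LE against E-OEX LE turned for Prss12 to 0.066 with edgeR, 0.047 with DESeq2 and 0.48 without U-OEx LE replicate 1 (-1.06 to 0.48). The causes were not tested.

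Prss12 in E-OEX GE was -6.45 on the deposited scale. With pseudocounts of 0.1 and 5 the GE excess was 14.47 and 9.91 for Prss28, 14.59 and 10.62 for Prss29, and 9.53 and 4.12 for Spink1 in E-OEX, by the construction of the scale.

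Pair correlations of same-numbered libraries were -0.34 to 0.25, not all over 0.1 in any comparison. The own number was the best match for 2 libraries in WT GE against LE, E-OEX GE against WT GE and U-OEx LE against E-OEX LE. It was the best match for 1 in each of the rest. With 3 libraries per group this cannot show whether same-numbered libraries share an animal or a batch. With the replicate block, Prss12 in U-OEx LE passed (-2.71, adjusted p = 0.0136), Hgfac and Agrn in E-OEX GE no longer did (adjusted p = 0.0518 and 0.0619), and counts were 290, 3004, 604 and 712 in the order above. Of 41 calls of named list genes, 5 were lost under another setting and 20 without 1 library, and none turned.

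Matching unannotated transcripts by name, an alternative chosen after seeing the data, changed no call of the 4 genes. WT and E-OEX depth covers selected genes only, so full depth is unknown there.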
